A study of Mus musculus with 4 samples.

Results

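The addition of astragalus polysaccharide to metformin was examined in the liver of aging mice with a model of type 2 diabetes, by setting the array of the combined treatment against the array of metformin alone. These were 2 of the 4 arrays of the study. The study as labelled covered male mice whose whole liver was hybridised to 1-colour Agilent mouse expression arrays, with 1 array for each of 4 groups: naturally aging controls, the untreated aging diabetes model, the model given metformin, and the model given astragalus polysaccharide together with metformin. The titles of all 4 samples carry 60 d, without saying from which day it counts. Doses, strain, age in weeks, the way diabetes was induced and the number of mice behind each array were not given in the sources used here. Both arrays of the comparison came from diabetic mice and both groups received metformin, so the comparison is about the polysaccharide on top of the drug. No array held the polysaccharide alone. With 1 array on each side there is no test, and a difference of treatment cannot be told apart from a difference between mice, RNA samples or arrays.

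Metformin is a biguanide taken up into hepatocytes, where it lowers glucose output and engages the energy sensor AMPK. Astragalus polysaccharide is a water-soluble extract of the root of Astragalus, used in traditional Chinese medicine and studied for effects on immune cells and on glucose handling. The liver is built mostly of hepatocytes, which make plasma proteins, bile acids, urea and glucose, and it also holds Kupffer cells, lymphocytes, endothelial and stellate cells, bile duct cells and blood.

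A gene was counted as measured when it had a probe well above background on both arrays after outlier spots were left out, and 14363 genes were. Levels are log2 signals with each array moved by 1 constant so that the median gene had the same level as on the metformin array, and a difference is the level on the combination array minus that on the metformin array. Levels of different genes are levels of different probes and were not compared with each other. A difference of at least 1 on the log2 scale, which is 2-fold, was used as the mark of size. At that mark 259 genes (1.8%) were higher on the combination array and 1470 (10.2%) were lower, together 1729 (12%). Of these, 85.0% were lower, and 95.8% were lower when the arrays were scaled on their spike-in controls. The counts cover only genes with a RefSeq symbol. Among 9132 measured probes without a symbol the lean was the other way, with 475 past 2-fold upward and 374 downward. At least 4-fold apart were 27 genes higher and 273 lower. The differences had an SD of 0.69, the 10th percentile lay at -1.01 and the 90th at 0.53, and the levels on the arrays correlated with r = 0.957 across genes, which are not independent replicates.

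The lower genes lay among the dimmer probes. Among the 3591 genes with the lowest mean level 17.8% were at least 2-fold lower and 2.31% higher, with a median difference of -0.19. Among the 3591 genes with the highest level 54 were at least 2-fold lower and 29 higher, with a median of 0.14.

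**Figure D1:**
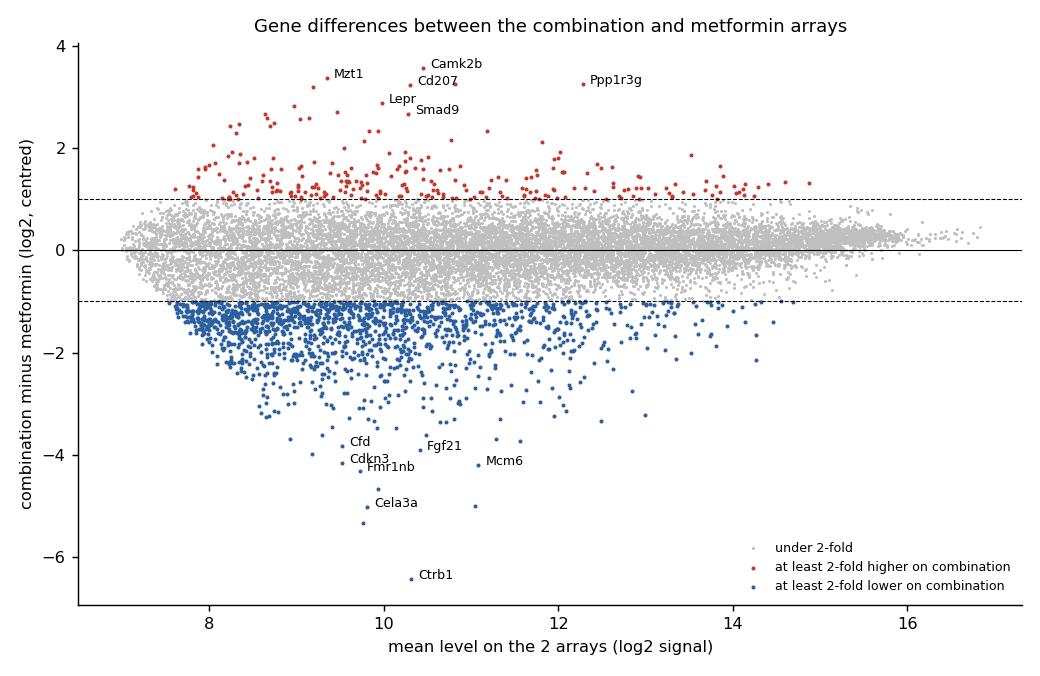
Difference of each of the 14363 genes between the combination and metformin arrays (log2, centred on the median gene) against its mean level on those arrays (log2 signal). Dashed lines mark 2-fold, and blue points (1470 genes lower) outnumber red points (259 genes higher), most of all at low levels.

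The precision within an array was set by repeated spots: over 291 probes with at least 3 kept spots on both arrays, the SD of a log2 difference was 0.09. Different probes of the same gene differed with a median SD of 0.22 over 4154 genes. Of the 1729 genes past 2-fold, 1452 rested on 1 probe, and of the 277 with more probes, 269 had probes with the same sign. Outlier spots were 5.35% of spots on the metformin array and 2.18% on the combination array, and 14.5% against 6.31% among bright spots. None of these figures covers the spread between mice. The whole median gene moved by -0.34 when the arrays were set on the spike-in controls and by -0.19 on the 75th percentile. Values are therefore given relative to the median gene. The spike-in scale rested on 6 probes, whose log2 differences ran from 0.21 to 0.79 with a median of 0.30.

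Hepatocyte identity was shared by both arrays. Of 16 hepatocyte markers 14 were measured, 13 of them with a difference above 0 and 0 past 2-fold, with a median of 0.33 that turned slightly negative (-0.02) on the spike-in scale. Albumin (Alb), the main plasma protein, stood at 15.94 in the control liver, 15.86 in the untreated diabetic liver, 15.59 under metformin and 15.90 under the combination. The summed signal of the markers on the combination array was 1.24 times that on the metformin array.

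Lists of 1080 genes in 54 groups were read from the array, of which 879 distinct genes were measured on both arrays, 20 of them at least 2-fold higher and 136 lower. The groups whose median lay at -1 or lower were 4: digestive enzymes of the acinar pancreas, mitosis genes, lymphocyte markers and interferon-stimulated genes. The urea cycle and amino acid breakdown group was the only group with a median of 0.5 or higher.

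**Figure D2:**
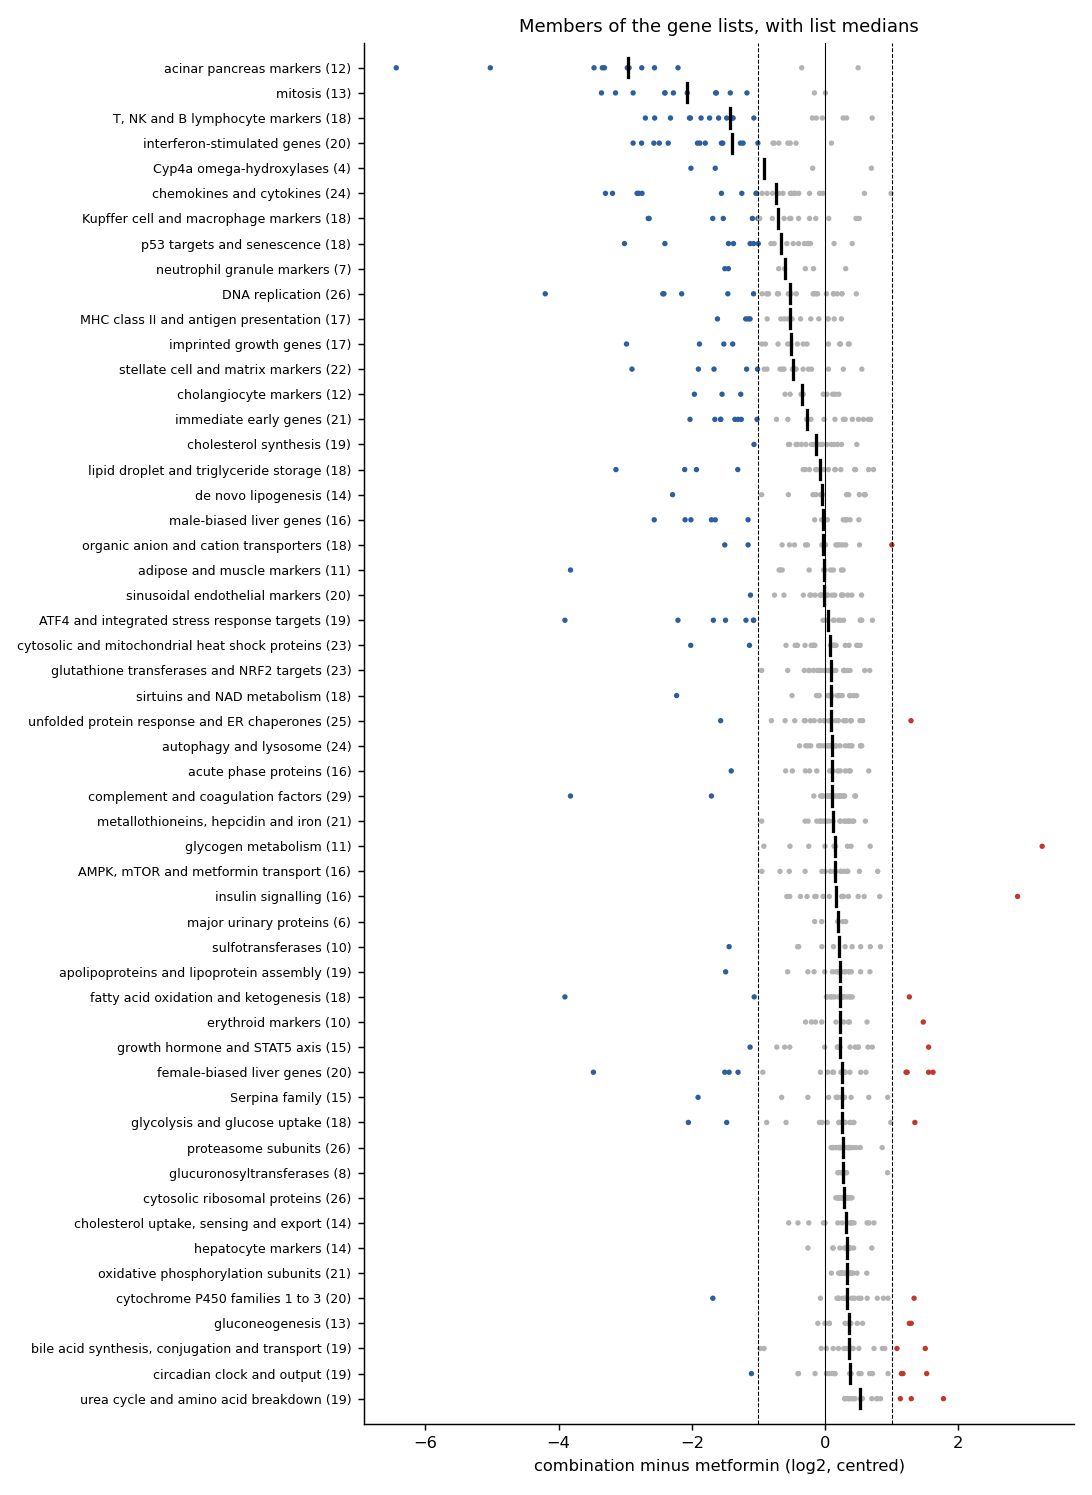
Differences (combination minus metformin, log2, centred) of the measured members of each gene group, with a bar at the group's median; blue dots are at least 2-fold lower, red dots at least 2-fold higher. Pancreas, mitosis, lymphocyte and interferon groups sit lowest and the urea cycle and amino acid group highest; small positive medians turn negative on the spike-in scale in 28 of 32 groups.

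Interferon-stimulated genes encode antiviral proteins made when type I or type II interferon activates STAT factors, and many carry the interferon response element in their promoters. The element's core was searched as GAAA, any 2 bases and again GAAA, on both strands in the RefSeq promoters (GRCm38.p6, 250 bases before to 50 after the gene start). It was present in 15 of the 22 listed genes with a promoter sequence (68.2%), against 3.99% of 27025 genes. A stretch of each of 2 such promoters is shown because their genes are among the listed ones lower on the combination array, with the core in capitals: Oas1g (chr5:120887614-120887713, minus strand) and Isg15 (chr4:156200830-156200929, minus strand).
Oas1g: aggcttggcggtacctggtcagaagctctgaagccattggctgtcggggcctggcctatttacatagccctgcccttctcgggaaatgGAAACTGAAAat
Isg15: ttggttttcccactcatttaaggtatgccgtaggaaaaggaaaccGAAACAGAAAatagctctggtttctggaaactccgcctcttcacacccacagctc

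Of 30 interferon-stimulated genes 20 were measured, and 13 (65.0%) were at least 2-fold lower on the combination array while 0 were higher, against 10.2% and 1.8% of all genes. Their median difference was -1.40, and it stayed between -1.75 and -1.23 under the 10 alternative processings. Oas1g, of the family of enzymes that sense double-stranded RNA, had levels of 9.73 in the control liver, 9.82 in the untreated diabetic liver, 12.20 under metformin and 9.32 under the combination, a difference of -2.88 (7.37-fold lower); its probe may share signal with near-identical Oas1 genes. Oasl2, a relative of that family, stood at 10.54, 10.94, 12.72 and 9.97 in the same order, 6.74-fold lower. The metformin array was the high array for both, and the other 3 lay below it.

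Isg15, a ubiquitin-like protein joined to other proteins after interferon, stood at 13.16 in the control liver, 13.89 in the untreated diabetic liver, 14.75 under metformin and 12.87 under the combination, 3.68-fold lower. Ifi44, a cytoplasmic interferon-induced protein, stood at 11.23, 11.72, 13.54 and 10.97, 5.93-fold lower. The nucleic acid sensor Zbp1 was 5.11-fold lower, though its 2 probes gave -3.33 and -1.38. Among the regulators, Irf7, the transcription factor that amplifies the interferon response, was 2.35-fold lower. Stat2 (-0.69) and Irf9 (-0.56), which carry the signal from the receptor, lay below 0 by less than 2-fold, as did the deconjugase Usp18 (-0.52). Iigp1, an interferon-induced GTPase, differed by 0.10. Oas2 was well above background on the metformin array only and was at least 5.77-fold lower, a bound set by the lowest signal that counts as above background on the combination array. Of the 19 measured members with a level on all 4 arrays, 15 were highest on the metformin array (78.9%), against 30.6% of all genes.

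Mitosis genes carry out chromosome condensation, spindle assembly and the exit from division. Most of their promoters hold the cell cycle homology region, searched here as TTTGAA on both strands: 15 of 21 genes (71.4%), against 20.2% of all genes. DNA replication genes are driven by E2F factors, whose sites were searched as TTTCCCGC and TTTGGCGC on both strands and were found in 8 of 22 listed promoters (36.4%), against 486 of 27025 genes. Of these promoters, stretches are shown for the genes that lay furthest down, with the matched letters in capitals: Ube2c (chr2:164769829-164769928, plus strand), Mki67 (chr7:135716425-135716524, minus strand), Mcm6 (chr1:128359706-128359805, minus strand) and Mcm5 (chr8:75109314-75109413, plus strand).
Ube2c: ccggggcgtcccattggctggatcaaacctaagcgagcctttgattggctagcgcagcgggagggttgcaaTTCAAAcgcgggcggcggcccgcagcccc
Mki67: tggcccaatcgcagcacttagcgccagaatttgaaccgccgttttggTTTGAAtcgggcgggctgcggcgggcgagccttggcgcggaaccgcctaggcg
Mcm6: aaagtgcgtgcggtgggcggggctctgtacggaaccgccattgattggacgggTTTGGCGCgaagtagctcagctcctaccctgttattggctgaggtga
Mcm5: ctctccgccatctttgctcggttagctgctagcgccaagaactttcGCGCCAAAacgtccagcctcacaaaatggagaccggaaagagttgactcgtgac

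Of 26 mitosis genes 13 were measured on both arrays, and 11 of these (84.6%) were at least 2-fold lower on the combination array and 0 higher, against 10.2% and 1.8% of all genes, with a median of -2.07. A further 10 were seen on the metformin array only, each with a bound past 2-fold, so the measured members are not the whole list. Ube2c, the ubiquitin-conjugating enzyme of the anaphase-promoting complex, had levels of 10.80 in the control liver, 10.79 in the untreated diabetic liver, 12.39 under metformin and 9.04 under the combination, a 10.2-fold difference. Birc5, survivin, stood at 10.29, 9.42, 12.12 and 8.98, and its 2 probes gave -3.48 and -2.81. Mki67, the proliferation antigen, stood at 11.47, 8.90, 11.98 and 9.10, so the control array was nearly as high as the metformin array and the diabetic array as low as the combination array. The DNA topoisomerase Top2a was at least 9.53-fold lower, the spindle factor Tpx2 at least 7.34-fold, cyclin Ccnb1 at least 5.58-fold and the transcription factor Foxm1 at least 3.62-fold. Cdc20, the activator of the anaphase-promoting complex, was 3.12-fold lower, but its probes gave -3.33 and 0.04 and the difference was 0.05 on the brighter probe alone. Centromere genes did not share a size: Cenpm differed by 0.01 and Cenpa by -0.16, while Cenpe and Cenpf, seen on the metformin array only, were at least 5.75-fold and 3.07-fold lower. Outside the list, Cdkn3, a phosphatase of cyclin-dependent kinases, was 17.8-fold lower, with 8.35, 8.53, 11.60 and 7.45 on the 4 arrays.

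All 26 DNA replication genes were measured, 6 at least 2-fold lower (23.1%, against 10.2% of all genes and 17.8% of the 3591 dimmest) and 0 higher, with a median of -0.53. Mcm6, a subunit of the replicative helicase, was among the 12 lowest genes, with 11.95 in the control liver, 8.09 in the untreated diabetic liver, 13.18 under metformin and 8.98 under the combination (18.4-fold lower). Mcm5 of the same helicase stood at 9.72, 7.57, 11.27 and 8.85 (5.34-fold lower), Mcm2 was 4.44-fold and Mcm4 2.10-fold lower. Gins2, of the GINS complex that activates the helicase, was 5.41-fold lower and Rrm2, the small subunit of ribonucleotide reductase, 2.75-fold. Other subunits of the helicase differed less, Mcm3 by -0.85 and Mcm7 by -0.18, and Pcna, the sliding clamp of DNA polymerase, by 0.18. The metformin array was the highest of the 4 for 16 of 24 replication genes and 11 of 13 mitosis genes, and the diabetic array the lowest for 15 and 7.

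Markers of T, NK and B lymphocytes lay lower on the combination array. Whole liver was hybridised, so fewer cells of a type and less RNA per cell cannot be told apart. Of 25 markers 18 were measured, 12 (66.7%) at least 2-fold lower and 0 higher, against 10.2% and 1.8% of all genes, with a median of -1.43. Their summed signal, over 23 markers, was 15900 in the control liver, 8340 in the untreated diabetic liver, 26600 under metformin and 13000 under the combination. Nkg7, a granule protein of NK and cytotoxic T cells, stood at 10.46, 8.31, 12.39 and 9.69 in that order (6.49-fold lower). Gzma, granzyme A, stood at 10.43, 7.93, 11.58 and 9.03 (5.89-fold lower). The T-cell receptor chains Cd3g, Cd3d and Cd3e were 4.99-fold, 4.10-fold and 3.33-fold lower. Not every lymphocyte gene followed: the co-receptor Cd4 differed by 0.27, perforin (Prf1) by 0.71 and the immunoglobulin joining chain Jchain by 0.32. The B-cell marker Cd79a was not well above background on either array, Cd79b was 2.10-fold lower and Ms4a1, seen on the metformin array only, at least 2.65-fold lower. The part of lymphocyte content in the interferon values was not tested.

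Chemokines and cytokines, the signals that draw and activate leukocytes, were measured for 24 of 33 genes, with 9 (37.5%, against 10.2% of all genes) at least 2-fold lower, 0 higher and a median of -0.74. Ccl2, which attracts monocytes, stood at 10.86 in the control liver, 9.01 in the untreated diabetic liver, 12.98 under metformin and 9.69 under the combination (9.82-fold lower). Its receptor Ccr2 was 7.07-fold lower with 10.01, 8.86, 11.57 and 8.75. Other leukocyte attractants were also lower, Ccl3 by 9.13-fold, Ccl4 by 6.96-fold and Ccl5 by 6.71-fold. The 2 measured members above 0 were Ccl19 (0.99) and Ccl9 (0.59), each under 2-fold. On the metformin array only were the neutrophil attractants Cxcl5 (at least 3.45-fold lower) and Cxcl2 (at least 2.31-fold), the monocyte attractants Ccl7 (at least 10.4-fold) and Ccl12 (at least 2.53-fold), and the receptor Cx3cr1 (at least 6.21-fold).

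Among Kupffer cell and macrophage markers, 18 of 20 were measured, 6 (33.3%, against 10.2% of all genes) at least 2-fold lower and 0 higher, with a median of -0.70. The members furthest below 0 were Trem2, a lipid receptor of macrophages, with 9.59, 10.95, 12.78 and 10.14 in control, untreated diabetic, metformin and combination livers (6.23-fold lower), and Gpnmb, a lysosomal glycoprotein of the same cells, 6.29-fold lower and below background on the control array. Folr2 was 3.22-fold and Adgre1, the F4/80 antigen, 2.88-fold lower. Clec4f, a lectin of resident Kupffer cells, differed by -0.23, the colony-stimulating factor receptor Csf1r by -0.14 and the scavenger receptor Cd163 by 0.06. The summed signal over 16 markers was 234000, 164000, 240000 and 149000. Chil3, a chitinase-like protein of macrophages and neutrophils, was outside the list and 12.2-fold lower.

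Genes of antigen presentation differed less. Of 17 measured genes 4 (23.5%) were at least 2-fold lower, against 10.2% of all genes, and 0 higher, with a median of -0.53: Ciita, the master activator of class II genes, was 3.06-fold lower, the peptide loaders H2-DMb1 and H2-DMa 2.28-fold and 2.22-fold, and the immunoproteasome subunit Psmb9 2.18-fold. The class II chains H2-Eb1 (-0.56) and H2-Ab1 (-0.53) and their chaperone Cd74 (-0.49) lay below 0 by less than 2-fold. The class I genes H2-K1 (0.14), H2-D1 (0.05) and B2m (0.25) did not. Neutrophil granule markers were measured for 7 of 16 genes, with 2 (28.6%, against 10.2% of all genes) at least 2-fold lower, 0 higher and a median of -0.61. Csf3r differed by 0.31, Lcn2 by -0.295, Retnlg by -0.61 and Mpo by -0.695. A further 3 were seen on the metformin array only with a bound past 2-fold. The largest bound was that of the primary granule protease Prtn3, at least 17.2-fold lower. The summed signal over 14 markers was 100000 on the metformin array and 91600 on the combination array.

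**Figure D3:**
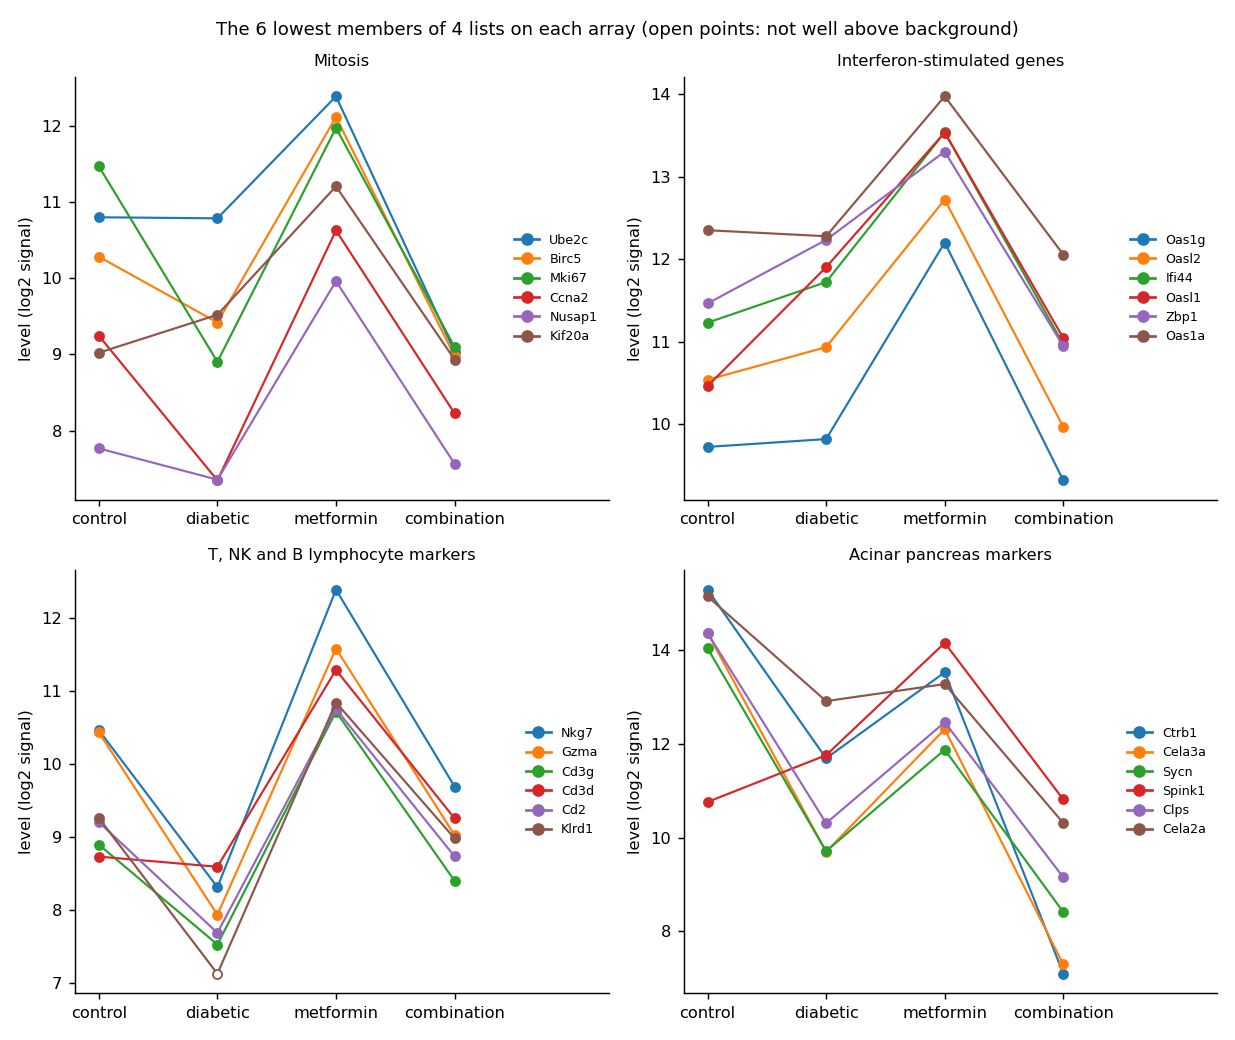
Levels (log2 signal, on the metformin array's scale) on the 4 arrays of the 6 lowest members of the mitosis, interferon, lymphocyte and pancreas groups; a line joins the points of a gene, open points were not well above background and a missing point was an outlier spot. In the first 3 groups the metformin array is highest for most genes, and in the pancreas group the control array.

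Digestive enzymes of the acinar pancreas held the lowest measured gene and the 4 largest bounds. Of 30 such genes 12 were measured on both arrays, 10 of them (83.3%, against 10.2% of all genes) at least 2-fold lower and 0 higher, and 11 more were seen on the metformin array only with a bound past 2-fold. Chymotrypsinogen (Ctrb1) stood at 15.29 in the control liver, 11.69 in the untreated diabetic liver, 13.53 under metformin and 7.09 under the combination, 86.6-fold lower. The elastase Cela3a stood at 14.37, 9.70, 12.31 and 7.29, 32.6-fold lower. The trypsinogens Prss2, Try5, Prss3 and Try4 were at least 111-fold, 108-fold, 90.8-fold and 73.3-fold lower, and these near-identical genes can share signal on their probes. The order of arrays was the same for most members: the control array was highest for 11 of 12 and the combination array lowest for 10 of 12. Over 26 members the summed signal was 499000, 68600, 155000 and 40600, a wider range than that of any other marker list summed. Exceptions were the amylase Amy2a5 (0.50) and the elastase Cela1 (-0.35). On the combination array 15 of the enzymes were not well above background, among them Prss2, Cpa1, Cel and Amy2b, and on the metformin array 0. The pancreas genes made up 10 of the 1470 lower genes. Their link to the other groups was not tested; the interferon, mitosis and lymphocyte groups had the metformin array and not the control array as their highest.

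Matrix genes of stellate cells, which lay down collagen in the liver, were measured for 22 of 28 members, 5 (22.7%) at least 2-fold lower, against 10.2% of all genes, and 0 higher, with a median of -0.48. Col1a1, the main chain of type I collagen, stood at 10.29, 9.28, 11.90 and 8.997 in control, untreated diabetic, metformin and combination livers, and its 3 probes ranged from -3.54 to -2.58 (7.46-fold lower). Timp1, an inhibitor of matrix proteases, was 3.73-fold lower, Col3a1 3.18-fold and Col1a2 2.02-fold. The contractile markers Acta2 (-0.45), Tagln (-0.20) and Des (-0.64) stayed under 2-fold. Sinusoidal endothelial markers were balanced, with 10 of 20 above 0 and 1, the hyaluronan receptor Lyve1 (2.17-fold lower), past 2-fold. Of 12 bile duct markers 3 (25.0%, against 10.2% of all genes) were at least 2-fold lower: Krt19 by 3.90-fold, Epcam by 2.92-fold and Ggt1 by 2.40-fold. Red cell genes had a median of 0.22, which turned to -0.12 on the spike-in scale.

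Genes of cell-cycle arrest and p53 signalling were lower as well, with 7 of 18 (38.9%, against 10.2% of all genes) at least 2-fold lower, 0 higher and a median of -0.67. The kinase inhibitor Cdkn2b was 5.29-fold lower on 2 probes that shared the sign. Cdkn1a, which encodes p21, stood at 10.73 in the control liver, 11.74 in the untreated diabetic liver, 12.35 under metformin and 10.97 under the combination (2.59-fold lower). Immediate early genes, the first transcription factors made after a stimulus, were at least 2-fold lower for 8 of 21 (38.1%) and higher for 0. The shares of all genes were 10.2% and 1.8%. The median was -0.28, and 8 of the 21 lay above 0, up to 0.69 for Nr4a3. Egr1 stood at 12.61, 9.03, 11.96 and 9.93 (4.08-fold lower), Klf6 was 3.15-fold and Atf3 2.97-fold lower. For 16 of these 21 genes the diabetic array was the lowest.

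Imprinted growth genes, some of which are active in the fetal liver and largely silent in the adult, were measured for 17 of 18. Of these 4 (23.5%, against 10.2% of all genes) were at least 2-fold lower and 0 higher, with a median of -0.51. Dlk1, a Notch-like protein of fetal hepatoblasts, was below background on the control array (6.93), stood at 7.51 on the diabetic array, 12.34 on the metformin array and 9.36 on the combination array (7.89-fold lower). Igf2, the fetal growth factor, showed the same order with 5.75, 9.11, 12.76 and 10.88 (3.69-fold lower). The noncoding RNAs Rian and Meg3, from the same imprinted cluster as Dlk1, were 2.87-fold and 2.61-fold lower. The combination array thus lay between the diabetic and metformin arrays for these 4 genes.

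Stress genes downstream of ATF4, the factor translated when the integrated stress response is on, included some of the lowest genes beside others near 0. ATF4 binds with CEBP partners to a composite element, searched as TGATGNAA on both strands and found in 7 of 19 listed promoters (36.8%), against 4.51% of all genes. Stretches of 3 of these promoters are shown for genes that lay lower, with the element in capitals: Fgf21 (chr7:45615576-45615675, minus strand), Nupr1 (chr7:126625527-126625626, minus strand) and Asns (chr6:7693210-7693309, minus strand).
Fgf21: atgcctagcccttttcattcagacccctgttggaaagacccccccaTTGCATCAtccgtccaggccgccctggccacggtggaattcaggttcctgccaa
Nupr1: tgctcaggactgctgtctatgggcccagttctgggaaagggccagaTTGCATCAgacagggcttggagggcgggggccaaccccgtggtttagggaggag
Asns: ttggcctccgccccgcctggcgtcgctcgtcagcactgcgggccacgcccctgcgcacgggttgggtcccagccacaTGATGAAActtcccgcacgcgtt

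Of 19 measured ATF4 targets 7 (36.8%, against 10.2% of all genes) were at least 2-fold lower and 0 higher, although the median of the list was 0.04 and changed sign between alternatives. Fgf21, the liver hormone of fasting and of nutrient stress, had levels of 10.86 in the control liver, 12.36 under metformin and 8.46 under the combination, a 15.0-fold difference, and its spot was an outlier on the diabetic array. Nupr1, a stress-induced chromatin protein, stood at 12.96, 12.81, 13.51 and 11.30 on the 4 arrays (4.62-fold lower). Asns, asparagine synthetase, stood at 11.89, 8.39, 11.68 and 10.001 (3.20-fold lower on 2 probes of the same sign). The mitochondrial folate enzyme Mthfd2 was 2.82-fold lower, the serine synthesis enzyme Psat1 2.28-fold, the death-linked factor Ddit3 2.10-fold and the hormone Gdf15 2.10-fold. Psat1 rested on probes of -2.29 and -0.09.

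Chaperones of the endoplasmic reticulum had a median of 0.10 with 1 of 25 past 2-fold in each direction: Derl3, of the degradation channel, was 2.96-fold lower, and Dnajb11, a cochaperone, was 2.45-fold higher on probes of 2.84 and -0.25 that did not share a sign. Of 23 measured heat shock proteins 2 (8.7%, against 10.2% of all genes) were at least 2-fold lower and 0 higher. Their median was 0.08, with 12 above 0, up to 0.53 for Hspe1. The 2 lower ones were the inducible Hspa1a, at 13.55, 13.54, 10.58 and 8.56 (4.04-fold lower), and its near-identical copy Hspa1b (2.19-fold lower). For these the control and diabetic arrays were the high ones.

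The urea cycle, which turns ammonia into urea, and the enzymes that feed amino acid nitrogen into it lay furthest up of the listed groups. All 19 measured genes of the group had a difference above 0, with a median of 0.53 that ranged from 0.19 to 0.55 over the alternatives, and 3 (15.8%) were at least 2-fold higher against 1.8% of all genes. The alanine aminotransferase Gpt2 stood at 12.88 in the control liver, 11.06 under metformin and 12.84 under the combination (3.43-fold higher), with an outlier spot on the diabetic array. Got1, the cytosolic aspartate aminotransferase, stood at 14.23, 14.87, 13.75 and 15.05 (2.45-fold higher), and Aass, of lysine breakdown, at 14.22, 14.01, 13.47 and 14.61 (2.19-fold higher). On the brightest probe alone Got1 (0.62) and Aass (0.41) were under 2-fold. Serine dehydratase Sds (0.83), the methionine enzyme Mat1a (0.79), arginase Arg1 (0.77) and Hpd of tyrosine breakdown (0.70) followed. For 17 of 17 members with a level on all 4 arrays the combination array was the highest, and for 15 the metformin array was the lowest, against 24.2% and 25.5% of all genes. The metformin array was also mostly the lowest in other groups of bright genes, for 94.7% of oxidative phosphorylation subunits, 87.5% each of ribosomal proteins and proteasome subunits and 9 of 12 hepatocyte markers.

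Bile acid genes had a median of 0.36, with 16 of 19 above 0 and 2 (10.5%, against 1.8% of all genes) at least 2-fold higher. Cyp7a1, whose hydroxylation of cholesterol sets the pace of the pathway, stood at 10.63 in the control liver, 14.26 in the untreated diabetic liver, 13.59 under metformin and 14.67 under the combination (2.11-fold higher). Cyp8b1, which makes cholic acid, stood at 12.61, 13.43, 11.57 and 13.08 (2.84-fold higher). The nuclear receptor Nr0b2, a repressor of both enzymes, lay the other way at 13.26, 13.30, 13.68 and 12.77 (-0.92), and Amacr, a racemase of the side chain, at -0.97. Cyp7a1 lay under 2-fold in the authors' table, on the 75th percentile scale and on the spike-in scale (0.74).

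In gluconeogenesis, the making of glucose that metformin restrains, 2 of 13 genes (15.4%) passed 2-fold upward and 0 downward. The shares of all genes were 1.8% and 10.2%. The median of the group was 0.35 and stayed at or above 0.01 in the alternatives. Ppargc1a, the coactivator of fasting metabolism, stood at 12.84, 12.73, 13.18 and 14.44 in control, untreated diabetic, metformin and combination livers (2.40-fold higher), and Got1 of the aspartate shuttle was the other. The enzymes of the pathway themselves stayed under 2-fold, with Pck1 at 0.48, Fbp1 at 0.30 and G6pc at 0.00. On the side of glucose use, liver pyruvate kinase (Pklr) stood at 12.40, 11.19, 11.26 and 9.78 (2.78-fold lower). The pyruvate dehydrogenase kinase Pdk1 was 2.55-fold higher on 3 probes and Pdk4 2.09-fold lower. Ppp1r3g, a glycogen-targeting subunit of protein phosphatase 1 in the liver, was among the 12 highest genes with 13.92, 10.88, 10.65 and 13.91 (9.58-fold higher), so that the control and combination arrays were high and the diabetic and metformin arrays low. The other 10 measured glycogen genes stayed under 2-fold, from -0.92 for Ppp1r3c to 0.68 for Gbe1.

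The targets linked to metformin itself showed small differences. Of 16 measured genes of AMPK, mTOR and metformin transport 0 passed 2-fold in either direction. The metformin exporter Slc47a1 differed by 0.16. The AMPK catalytic subunit Prkaa2 differed by 0.79 and Prkaa1 by -0.30, the regulatory subunit Prkab2 by -0.95, and Mtor by 0.23. In insulin signalling 1 of 16 passed 2-fold, the leptin receptor Lepr, with 10.57, 12.54, 8.53 and 11.42 (7.42-fold higher, 2 probes of 2.69 and 3.09), while Irs2 differed by 0.82, Irs1 by -0.15 and Insr by -0.13. Of 18 genes of sirtuins and NAD metabolism 1 passed 2-fold, the adenylyltransferase Nmnat3 of NAD synthesis, which was 4.68-fold lower. Sirt1 differed by 0.06 and Sirt3 by 0.37.

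Lipid droplet genes had a median near 0 (-0.07), but 4 of 18 (22.2%, against 10.2% of all genes) were at least 2-fold lower and 0 higher. G0s2, which inhibits the lipase of the droplet, stood at 11.78, 13.39, 13.65 and 10.52 in control, untreated diabetic, metformin and combination livers (8.81-fold lower). The droplet-fusing proteins Cidea, at 11.49, 11.17, 13.19 and 11.09, and Cidec, at 13.17, 13.49, 13.53 and 11.60, were 4.31-fold and 3.81-fold lower. Mogat1, an acyltransferase of triglyceride synthesis, was 2.48-fold lower with 7.73, 11.28, 12.72 and 11.41. Plin2, the coat protein of droplets, differed by -0.33 and the final acyltransferases Dgat1 and Dgat2 by 0.45 and 0.24. In fatty acid synthesis 1 of 14 passed, the lipase-like Pnpla3, with 12.09, 11.53, 11.29 and 9.002 (4.89-fold lower), while Acaca (-0.14), Srebf1 (-0.07) and Acly (0.60) did not. In fatty acid oxidation 16 of 18 lay above 0, of which Ppargc1a passed 2-fold and enzymes such as Cpt1a (0.27) and Acaa2 (0.37) did not, the other 2, Fgf21 and Pdk4, were at least 2-fold lower, and the median of 0.22 turned to -0.12 on the spike-in scale. The lipoprotein lipase Lpl was 2.81-fold lower on 3 probes.

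Of 4 measured Cyp4a omega-hydroxylases 2 passed 2-fold downward and 0 upward, where 10.2% and 1.8% of all genes did. Cyp4a14 differed by -0.185 and Cyp4a31 by 0.70. Cyp4a10, lost to outlier spots, differed by 0.73 with those spots kept. The lower ones were Cyp4a12a, at 15.40, 14.69, 15.09 and 13.44 (3.13-fold lower), and Cyp4a12b (4.04-fold lower), though these copies can share signal. They also belong to the male-biased liver genes, of which 6 of 16 (37.5%, against 10.2% of all genes) were at least 2-fold lower and 0 higher, including Susd4 (5.92-fold), the fatty acid elongase Elovl3 (4.29-fold), the complement protein C6 (3.26-fold) and the organic anion carrier Slco1a1 (2.23-fold). The list's median was -0.02. For 8 of 10 male-biased genes with all 4 levels the control array was the highest. Of 20 measured female-biased genes 4 passed 2-fold upward and 4 downward. Over all genes 1.8% and 10.2% did so, so the upward count stood further above its share. Among the higher were Cux2, a repressor of male-biased genes, with 7.83, 10.44, 9.48 and 11.03 (2.94-fold), and the monooxygenases Fmo2 (3.08-fold) and Cyp17a1 (2.32-fold). Lower were Hao2, a hydroxy acid oxidase, with 7.89, 7.46, 11.65 and 8.18 (11.1-fold), Slc22a27 (2.84-fold), Sult3a1 (2.71-fold) and A1bg (2.47-fold). Among 20 measured drug-metabolising P450 genes and their regulators 1 was higher, Cyp2c50 (2.53-fold), and 1 lower, Cyp2c55 (3.21-fold). Of 23 glutathione transferases and NRF2 targets 0 passed 2-fold.

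Clock genes had a median of 0.37. Of 19, 3 (15.8%, against 1.8% of all genes) were at least 2-fold higher. They were the repressor Ciart (2.88-fold), Per3 (2.25-fold, with 10.81, 11.44, 9.68 and 10.85 on the 4 arrays) and the output deubiquitinase Usp2 (2.21-fold). The repressor Nfil3, which opposes the PAR factors, was 2.15-fold lower, and the PAR factors Tef and Dbp differed by 0.95 and 0.71. Per1 differed by 0.06 and Per2 by -0.40. The hour of tissue collection was not given in the sources used here, and its part in these values was not tested.

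**Figure D4:**
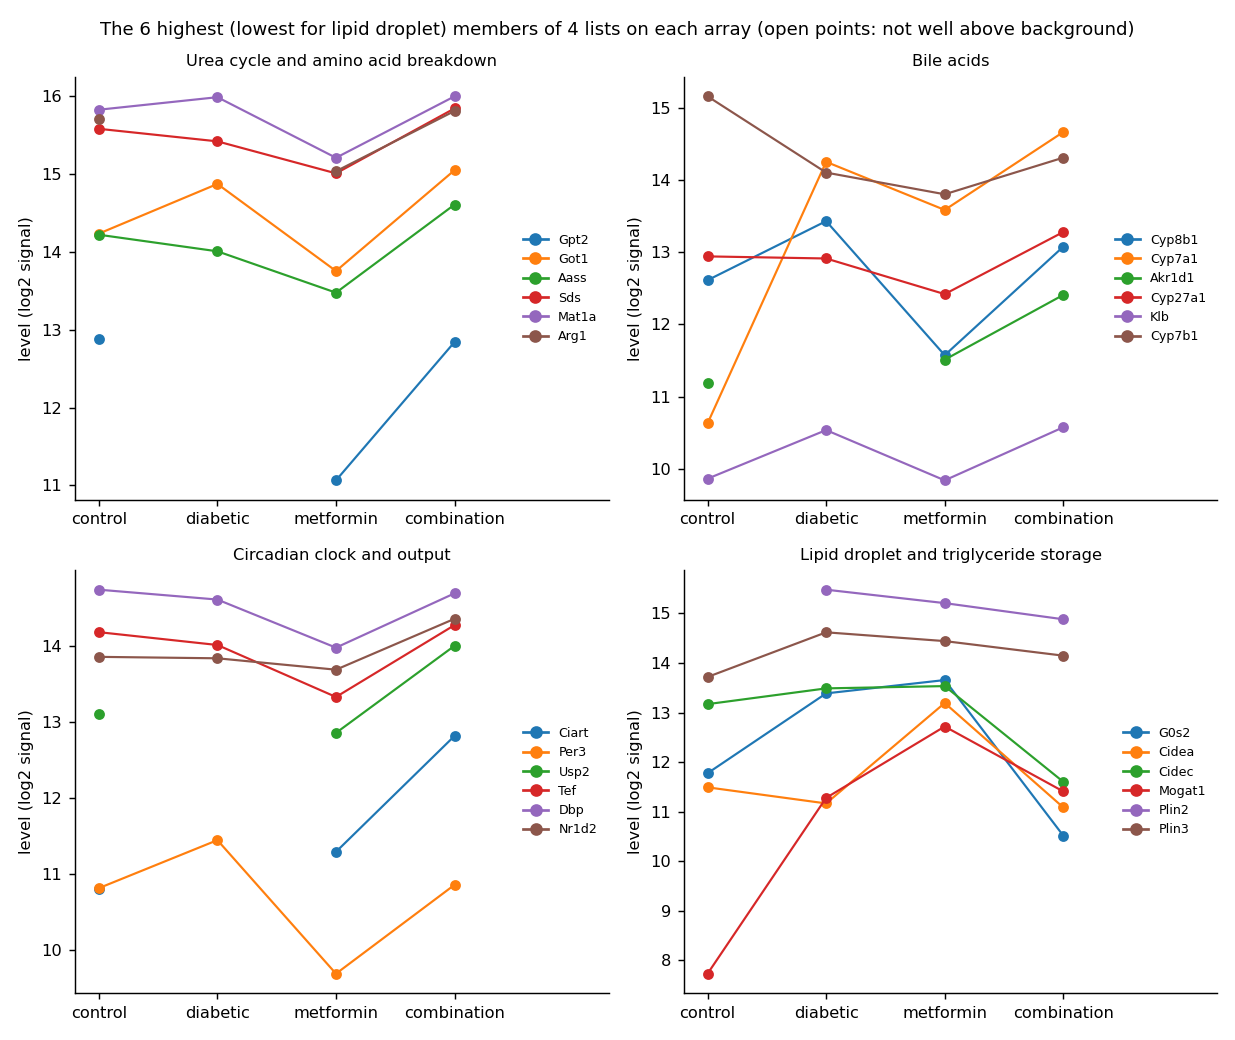
Levels (log2 signal, on the metformin array's scale) on the 4 arrays of the 6 highest members of the amino acid, bile acid and clock groups and the 6 lowest of the lipid droplet group; a line joins the points of a gene, and a missing point was an outlier spot. In the amino acid group the combination array is highest and the metformin array mostly lowest.

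Large multi-subunit machines of the cell varied little. All 26 measured ribosomal protein genes lay above 0, with a median of 0.28, all 26 proteasome subunits with a median of 0.26, and all 21 subunits of oxidative phosphorylation with a median of 0.33. None of these genes passed 2-fold, and on the spike-in scale the medians were -0.06, -0.08 and -0.02. The 3591 brightest genes had a median of 0.14.

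Outside the listed groups, the 12 genes with a full symbol furthest up among the brighter genes began with Camk2b, a calcium-dependent kinase known from neurons, at 10.80, 12.07, 8.66 and 12.23 (11.8-fold higher). Mzt1, a spindle pole protein, stood at 10.65, 10.31, 7.66 and 11.03 (10.3-fold higher), and Cd207, langerin, at 12.78, 10.66, 8.68 and 11.92 (9.44-fold higher). For these 3 the metformin array was the low one. A different order held for Smad9, a mediator of BMP signals, with 8.83, 6.44 (not above background), 8.94 and 11.60 (6.32-fold higher), and for Ren1, renin, which was below background on the control array (5.77) and stood at 10.88, 10.75 and 12.87 on the others (4.33-fold higher). The uridine phosphorylase Upp2, at 12.44, 11.89, 11.06 and 12.98, the channel Kcnn2 and the recombination factor Psmc3ip each had 2 probes of the same sign and were 3.78-fold, 3.77-fold and 5.02-fold higher.

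Ifi202b, an interferon-inducible DNA sensor, had the largest bound in the positive direction among genes with a full symbol; the predicted gene Gm3893 lay above it with at least 27.5-fold. It was not above background on the metformin array and stood at 12.43 in the control liver, 11.79 in the untreated diabetic liver and 11.35 under the combination, at least 22.5-fold higher. Its direction was opposite to that of the interferon group. Olfr1414, Pbsn and Snora74a followed with at least 10.9-fold, 9.01-fold and 8.97-fold, and were not above background on the control and diabetic arrays. In all 319 genes were seen on the combination array only, 80 with a bound of at least 2-fold, and 1401 on the metformin array only, 506 with such a bound.

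Of the 12 such genes furthest down, those not yet described included Fmr1nb (19.9-fold lower), Cfd, the adipocyte protease adipsin (14.1-fold; 8.66, 9.09, 11.43 and 7.61), Mrap2, a melanocortin receptor accessory protein (13.2-fold; 12.96, 9.35, 13.42 and 9.70) and Spon2, a matrix protein that binds microbes (a difference of -3.70; 10.07, 11.49, 13.13 and 9.43). The other 10 measured fat and muscle markers stayed under 2-fold: Adipoq differed by 0.27, Fabp4 by 0.24, Lep by 0.13, Retn by -0.67, Des by -0.64 and Myl1 by -0.69, and Plin1 and Ckm were not well above background on either array.

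**Figure D5:**
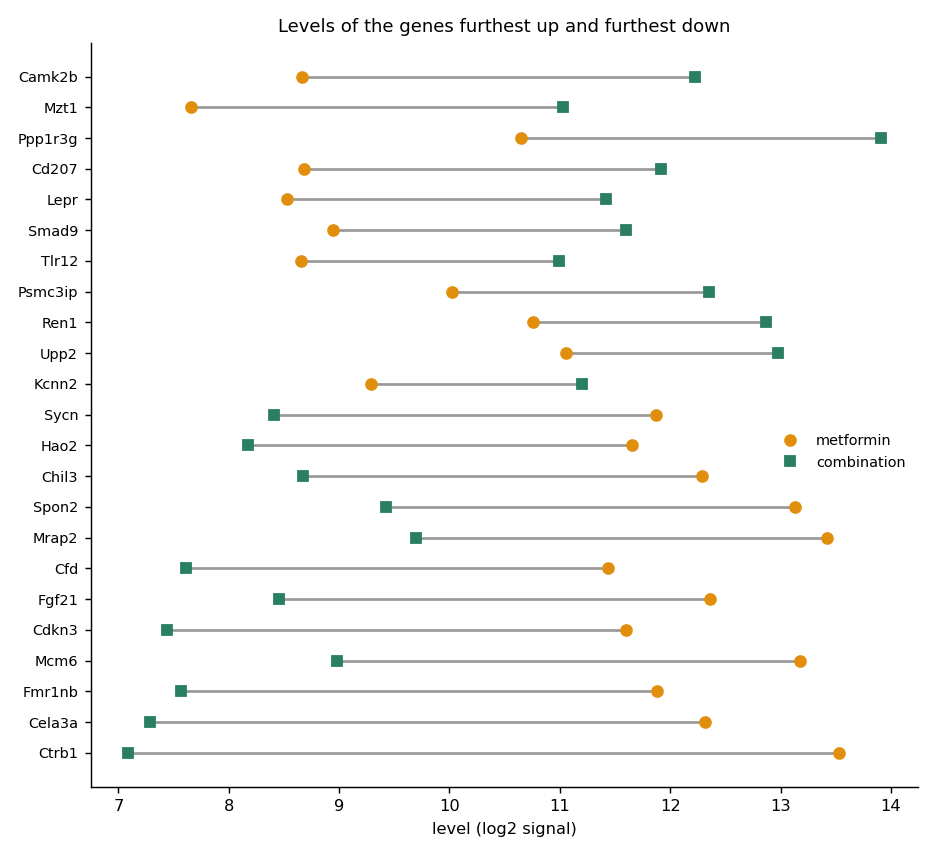
Levels (log2 signal) on the metformin array (circles) and the combination array (squares) of 11 of the 12 genes furthest up and of the 12 furthest down among the brighter measured genes with a full symbol. The longest line belongs to Ctrb1, from 13.53 to 7.09, and the longest in the other direction to Camk2b, from 8.66 to 12.23.

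Set against all 4 arrays, the 2-fold lower genes were mostly genes for which the metformin array stood out. Of 1442 such genes with 4 levels, 82.2% were highest on the metformin array, against 30.6% of all 13407 genes, and 44.3% were lowest on the combination array, against 18.97%. Of 235 genes 2-fold higher, 54.5% were lowest on the metformin array and 78.3% highest on the combination array. Selecting genes by this difference favours such orders, so the shares are a description only. Of the genes given here as past 2-fold, those under 2-fold in at least 1 alternative processing included Cd79b, Cdc20, Col1a2, Cyp17a1, Cyp2c50, Cyp7a1, Derl3, Dnajb11, Ggt1, Got1, Aass, H2-DMa, Irf7, Mcm4, Pdk1, Pdk4, Per3, Ppargc1a, Psat1, Slco1a1 and Usp2.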

How the data were processed

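RNA of whole liver was hybridised in 1 colour to Agilent mouse expression arrays, with 1 array for each of 4 groups, and 2 arrays were compared here. The red-channel intensity values deposited for each array are background-subtracted processed signals written by Feature Extraction 11.5.1.1, per the file headers; the submitters' processing notes name version 10.7. The deposited series table holds log2 values made by the authors from the same arrays, with a median of 7.84 on each array and correlations with the log2 scanner signals from 0.999 to 1.00, so its scale is log2 and its centring is that median; the direction is that of the signal.

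Of 59305 non-control spots on each array, spots with a flag for non-uniformity or for a population outlier were dropped and none was saturated. Spots of a probe were averaged on the log2 scale, and 99.5% of probes have 1 spot. A probe counted as measured when at least 50% of its kept spots were marked well above background on both arrays, and 31867 probes were so on the metformin array and 31980 on the combination array. Probes were named through their accessions in RefSeq (GRCm38.p6): 33767 of 56605 probes (59.7%) matched, giving 23462 symbols. Probe differences were averaged per gene and centred on the median gene difference (-0.05 before centring). A gene seen on 1 array only was given a bound: its level there over the higher of its own signal and the lowest signal well above background on the other array, each on the log2 scale. Named are the 12 highest and 12 lowest genes whose brighter level was above the median and whose probes share a sign, the 4 largest bounds in each direction, both without predicted genes and names that are only accessions or clone numbers, and in each group up to 4 members on each side of 0 and every member past 2-fold. Some genes that this rule picks are not reported here. Members and gene groups were chosen with earlier results of these data known. Of 1080 listed genes, 98 were lost to outlier spots and 52 were seen on 1 array only.

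The number of arrays limits the precision: with 1 array per group no p-value was computed. The 10 alternatives were run with Python 3.11.15, pandas 2.3.3, numpy 2.4.6, statsmodels 0.14.6 and limma 3.58.1 in R 4.3.3. The code was also run on simulated data with known changes, which checks the code and not the differences reported here. All 4 arrays lie on 1 slide.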

Additional observations from a re-analysis of the deposited data

How the results depend on the processing

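Against 259 genes at least 2-fold higher and 1470 lower, the higher count became 158 on the 75th percentile scale with no centring, 407 in the authors' table, 561 with no filter on background and 110 on the spike-in scale; the lower count became 2939 with no filter and 2492 on the spike-in scale. The cause of the change in the authors' table was not tested; the other 3 follow from their construction, since the 75th percentile and spike-in scales move every gene down and the absence of a filter adds genes (22503 against 14363). The remaining alternatives (outlier spots kept, quantile, loess, probes above background on all 4 arrays, normexp with an offset of 50, brightest probe per gene) left both counts within 1.5 times. Of 1691 values of 171 named genes past 2-fold under the 10 alternatives, 2 had the other sign, Cdc20 (0.045) and Dnajb11 (-0.248), both on the brightest probe, and 73 were under 2-fold, in 38 genes. Group medians below -0.2 kept their sign under all 10; of 32 groups with a median above 0, the spike-in scale turned 28 below 0, the 75th percentile scale 12, and 10 each did so with loess and in the authors' table.

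Normexp used the spots' median signal, since a mean signal column was not used here. Bounds were not computed for loess, the absence of a filter, the filter over all 4 arrays and the brightest probe. The slide as a block was not run, because all 4 arrays lie on 1 slide. No paired analysis was possible because each group has 1 array. Dim probes limit what is measured: 1401 genes were above background on the metformin array only.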

Other observations

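Probes without a RefSeq symbol were counted singly, while named genes were counted after their probes were averaged. Of 9132 such probes with a signal on each array, 475 had a level at least 2-fold higher under the combination and 374 (4.10%) a lower level, where 1.8% and 10.2% of named genes were. What these probes target was not analysed here.

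Among listed genes lost to outlier spots, 4 were at least 2-fold higher and 15 lower when those spots were kept. Lower by that reading were the stearoyl-CoA desaturase Scd1 (-3.28), the guanylate-binding protein Gbp6 (-3.12), the mitotic kinase Cdk1 (-2.43), the chemokine Cxcl10 (-2.20) and the pancreatic lipase Pnlip (-5.33). Higher were Socs2 (1.59), Sult1d1 (1.18), Cyp2c39 (1.12) and Sesn1 (1.04). These genes were named after their values were seen.

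Saa3, an acute phase protein, was 2.65-fold lower and Serpina7, which carries thyroid hormone, 3.75-fold lower, while the other measured acute phase proteins stayed under 2-fold. The erythroid transcription factor Klf1 was 2.78-fold higher on 2 probes of the same sign, beside haemoglobin genes that differed by 0.16 to 0.37.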
